A study of Mus musculus with 16 samples.

Results

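Regulators of the integrated stress response, 10 genes in all, were followed through RNA-seq and Ribo-seq of a mouse liver cancer line. They were chosen by name for their known roles, with earlier results of these data known, and make up 10 of the 22392 gene symbols counted. They are the transcription factors Atf4, Atf5, Atf3 and Ddit3 (CHOP), the effectors Trib3, Chac1, Sesn2 and Ddit4, and the phosphatase subunits Ppp1r15a and Ppp1r15b. Each gene was represented by the annotated transcript with the largest count summed over all 16 libraries. All 10 genes had enough counts to be tested for RNA, footprints and translation efficiency in every comparison.

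The libraries came from Hepa1-6, an established mouse hepatoma line, grown in DMEM with serum, glutamine and nonessential amino acids, and the labels name no stress agent for any group. WT cells were compared with 3 clones that lack exon 5 of Eef1d, a gene for a subunit of the exchange factor that recharges elongation factor eEF1A. KO1 and KO2 were made with the guide pair pS1 and pS4 and KO3 with pS2 and pS4, and each clone grew from a single cell, so the deletion and other properties of a clone cannot be told apart. Each line had 2 replicates of each assay, and the RNA-seq library was made from the lysate that gave the Ribo-seq library. The study's methods call the Ribo-seq replicates biological, the labels do not say whether they were separate cultures, and the p-values measure the spread between these libraries.

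The integrated stress response lets cells slow protein synthesis and switch gene expression when amino acids, heme or protein folding fail, or when viral RNA is sensed. Kinases phosphorylate the initiation factor eIF2, most mRNAs are then translated less, and a few whose leaders hold upstream reading frames, with Atf4 the best known, are translated more. ATF4 protein in turn raises the transcription of amino acid synthesis genes and of further regulators such as Ddit3, Trib3 and Chac1, and Ppp1r15a closes the loop by helping to remove the phosphate from eIF2. Liver cells use the same program when amino acids run short.

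With 1 transcript per gene, RNA-seq libraries held 10493029 to 12946815 counts. Ribo-seq libraries held 1138944 (KO1 replicate 2) to 4886757 (KO1 replicate 1). Footprint values of KO1 replicate 2 therefore rest on the fewest reads. The Eef1d transcript with exon 5 had 116.0% to 116.2% of the RNA counts of the transcript without it in WT cells and 89.8% to 92.6% in the clones, with no overlap. Reads common to these transcripts are counted on both, so the ratio does not measure how much of the exon 5 form is left. Of 12 hepatocyte markers, 8 were above 1 CPM, the count scaled to library size, in both WT RNA-seq libraries, while Ttr, Apoa1, Fga and Serpina1a were at or below 1.28 CPM in all 8 libraries. Of 13 markers of other cell types, Adgre1 and Myod1 had no count, and only Dcn, a matrix proteoglycan, was high, at 706 to 1090 CPM. In bulk lysates, a change in every cell cannot be told apart from a larger change in a part of the cells.

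The leaders of these mRNAs are shown first, because footprints on 3 of the genes were unevenly placed around them. Placement was examined only for these, Atf4, Atf5 and Ddit3, and not for the other genes. In the annotated transcripts (GENCODE, genome build GRCm38), 7 of the 10 genes had at least 1 AUG upstream of the coding sequence, against 47.6% of 11669 genes with an annotated leader. In 2 of them, Atf4 and Atf5, an upstream reading frame ran out of frame into the coding sequence, against 15.4% of those genes. The leaders of Ddit4, Trib3 and Chac1 held no upstream AUG. The following windows of 30 bases, 5′ to 3′, have the start codon of an upstream frame or of the coding sequence in capitals, with positions counted from the first base of the coding sequence.
Atf4 upstream start at -196, 3 codons (chr15:80255570-80255599, plus strand): cttgcggccaccATGgcgtattagaggcag
Atf4 upstream start at -97, 59 codons (chr15:80255669-80256219, plus strand, across an intron): ccggcctaagccATGgcgctcttcacgaaa
Atf4 coding start (chr15:80256287-80256316, plus strand): aagccccacaacATGaccgagatgagcttc
Atf5 upstream start at -252, 3 codons (chr7:44816520-44816549, minus strand): tccgcccgcgcaATGgctctgtagccgcga
Atf5 upstream start at -121, 58 codons (chr7:44815270-44816418, minus strand, across an intron): cttttcgccgccATGgagtcctccaccttc
Atf5 coding start (chr7:44815149-44815178, minus strand): tgtgtcacagccATGtcactcctggcgacc
Ddit3 upstream start at -131, 34 codons (chr10:127290817-127290846, plus strand): gtcgattatatcATGttgaagatgagcggg

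Atf4 and Atf5 thus share a layout: a frame of 3 codons, then a long frame that overlaps the first 83 bases of the Atf4 coding sequence (28 codons touched) or the first 56 bases of that of Atf5 (19 codons touched). The longest Ddit3 frame ends before the coding sequence and holds a second AUG at -122 in the same frame. The Atf4 leader in the transcript used here also holds a frame of 36 codons at -475.

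**Figure D1:**
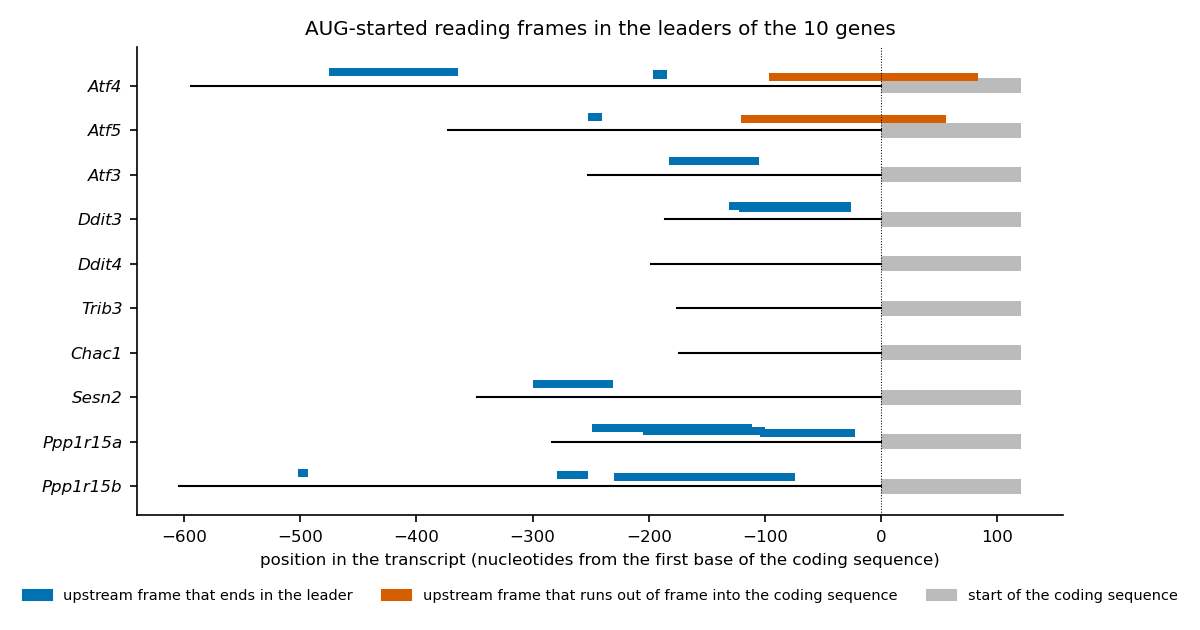
Reading frames that start with AUG in the annotated leaders of the 10 genes, drawn to scale in nucleotides from the first base of the coding sequence (0). Black lines are leaders, grey bars the start of the coding sequence, blue bars frames that end in the leader and orange bars frames that run out of frame into the coding sequence, which are seen for Atf4 and Atf5.

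In WT cells, RNA levels per 1000 counted codons set Atf4 far above the other genes, at 1320 and 1200 CPM per 1000 codons in the replicates, higher than 96.8% of 11755 genes. Atf5 followed at 344 and 308, then Ppp1r15b at 261 and 239 and Ddit4 at 190 and 200 CPM per 1000 codons. Ddit3, at 171 and 130, was next, and the replicates of these neighbouring genes did not overlap. Ppp1r15a, Atf3 and Sesn2 lay close together between 68.7 and 89.2 CPM per 1000 codons, and the replicates of Ppp1r15a and Atf3 overlapped. Trib3 (42.6 and 40.0) and Chac1 (43.0 and 36.7) were lowest and overlapped.

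Footprints gave another order. Ddit4, an inhibitor of the growth kinase mTORC1, led with 393 and 421 footprint CPM per 1000 codons, ahead of Atf4 with 322 and 297. Ddit3, the pro-apoptotic transcription factor CHOP, had 17.7 and 20.8, and Ppp1r15a 18.6 and 16.6. Both lay at the bottom of the 10 genes although their RNA was higher per codon than that of Trib3 and Chac1.

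Translation efficiency (TE), footprint CPM divided by RNA CPM in the same lysate, separated the genes into groups. Of the 10 genes, 4 lay among the lowest 10% of 11365 genes in WT cells: Ddit3 (TE 0.103 and 0.160), Ppp1r15a (0.209 and 0.219), Atf4 (0.244 and 0.248) and Atf5 (0.298 and 0.304). The median gene had a TE of 0.877, and the lowest 10% of genes lay under 0.346. All 4 carry upstream AUGs. So do Ppp1r15b, Sesn2 and Atf3, which were not among the lowest 10%, and 47.6% of genes with an annotated leader. Ppp1r15b, the constitutive partner of the eIF2 phosphatase, followed with 0.448 and 0.467, at percentile 16.9.

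Of the other genes, Atf3 (percentile 33.3) and Sesn2 (40.8) lay below the median, Trib3 (53.4) near it, and Chac1 and Ddit4 above it. In all, 7 of the 10 genes lay below the median. Atf3 had a TE of 0.801 and 0.569, Sesn2 0.824 and 0.710, and Trib3 1.09 and 0.779. Chac1, an enzyme that breaks down glutathione, had 1.46 and 1.53, and Ddit4 2.07 and 2.11, at percentile 94.9. The 3 genes without an upstream AUG (Ddit4, Chac1 and Trib3) were the 3 with the highest mean TE, which is a description of 10 genes and not a test. In the 6 clone lysates, TE of Ddit3 was between 0.131 and 0.236 and that of Ppp1r15a between 0.0772 and 0.212, so both stayed low in every line.

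**Figure D2:**
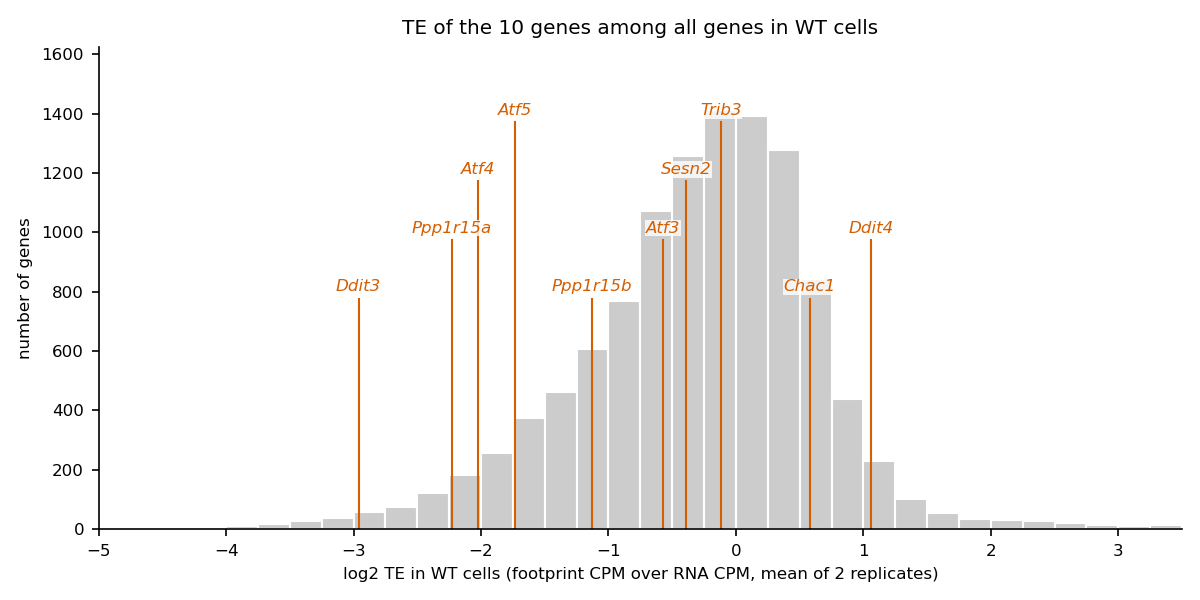
Distribution of log2 TE over 11365 genes in WT cells (grey bars, number of genes in bins of 0.25) with the mean of the 2 WT replicates of each of the 10 genes (orange lines). Ddit3, Ppp1r15a, Atf4 and Atf5 sit in the low tail and Ddit4 in the high tail.

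The comparison of each clone with WT cells asked whether the response differed after loss of exon 5. The clones did not share a direction. In KO1, the RNA of 8 of the 10 genes fell and none rose, beside 24.6% of 11515 genes tested that fell and 22.1% that rose. In KO3, 6 rose and none fell, beside 23.1% of 11434 genes that rose and 22.3% that fell. In KO2, 2 rose and 2 fell, beside 11.6% of 11476 genes that rose and 8.86% that fell. Their median log2 RNA change stood at -0.74 for KO1, -0.01 for KO2 and 0.40 for KO3, while that of all genes tested was between 0.000 and 0.003. These 3 comparisons share the WT libraries.

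Atf4, the central factor of the response, had 449 and 407 RNA CPM in WT cells, 225 and 217 in KO1, 563 and 475 in KO2, while KO3 had 501 and 490. Both KO1 libraries were below every other library and both KO2 and both KO3 libraries were above WT. Atf4 RNA fell 1.94-fold in KO1 (log2 change -0.95 ± 0.053 (SE), adjusted p = 4.66e-22) and rose 1.22-fold in KO2 (adjusted p = 0.00297) and 1.16-fold in KO3 (adjusted p = 0.000151). The rises in KO2 and KO3 lost their call without WT replicate 2, at log2 changes of 0.22 (adjusted p = 0.0627) and 0.15 (adjusted p = 0.081).

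Atf5, a related factor that is induced with Atf4, had 94.3 and 84.4 RNA CPM in WT cells, 29.3 and 28.3 in KO1 and, in the other two clones, 92.2 and 101 (KO2) and 165 and 180 (KO3). KO1 was lowest, KO3 highest, and KO2 overlapped WT. Its RNA fell 3.10-fold in KO1 (log2 change -1.63 ± 0.089, adjusted p = 2.61e-22) and rose 1.95-fold in KO3 (0.96 ± 0.068, adjusted p = 6.66e-22), while the change in KO2 did not pass the test (0.12, adjusted p = 0.31). Both calls held under every alternative tried.

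Ddit3 had 27.2 and 20.7 RNA CPM in WT cells, 17.5 and 15.6 in KO1, 22.8 and 23.1 in KO2, while KO3 had 34.3 and 36.9. The order was again KO1 lowest and KO3 highest, with KO2 between the WT replicates. Ddit3 RNA fell by 0.53 on the log2 scale in KO1 (adjusted p = 0.00127) and rose by 0.58 on the log2 scale in KO3 (adjusted p = 1.15e-05). Without WT replicate 1 the fall in KO1 was no longer called (-0.33, adjusted p = 0.137). The Ddit3 symbol covers 2 annotated gene entries whose transcripts overlap.

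Atf3, an early stress factor, had 13.7 and 13.8 RNA CPM in WT cells, 7.55 and 7.07 in KO1 and, in the other two clones, 9.07 and 11.3 (KO2) and 13.3 and 13.4 (KO3). It differed from Atf5 and Ddit3 in that KO3 did not lie far from WT. Its RNA fell 1.88-fold in KO1 (adjusted p = 3.19e-05), and the changes in KO2 (-0.42, adjusted p = 0.0799) and KO3 (-0.04, adjusted p = 0.869) did not pass the test. In KO2 it was called without KO2 replicate 2 (-0.59, adjusted p = 0.0292) and in thinned counts (-0.49, adjusted p = 0.0453).

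**Figure D3:**
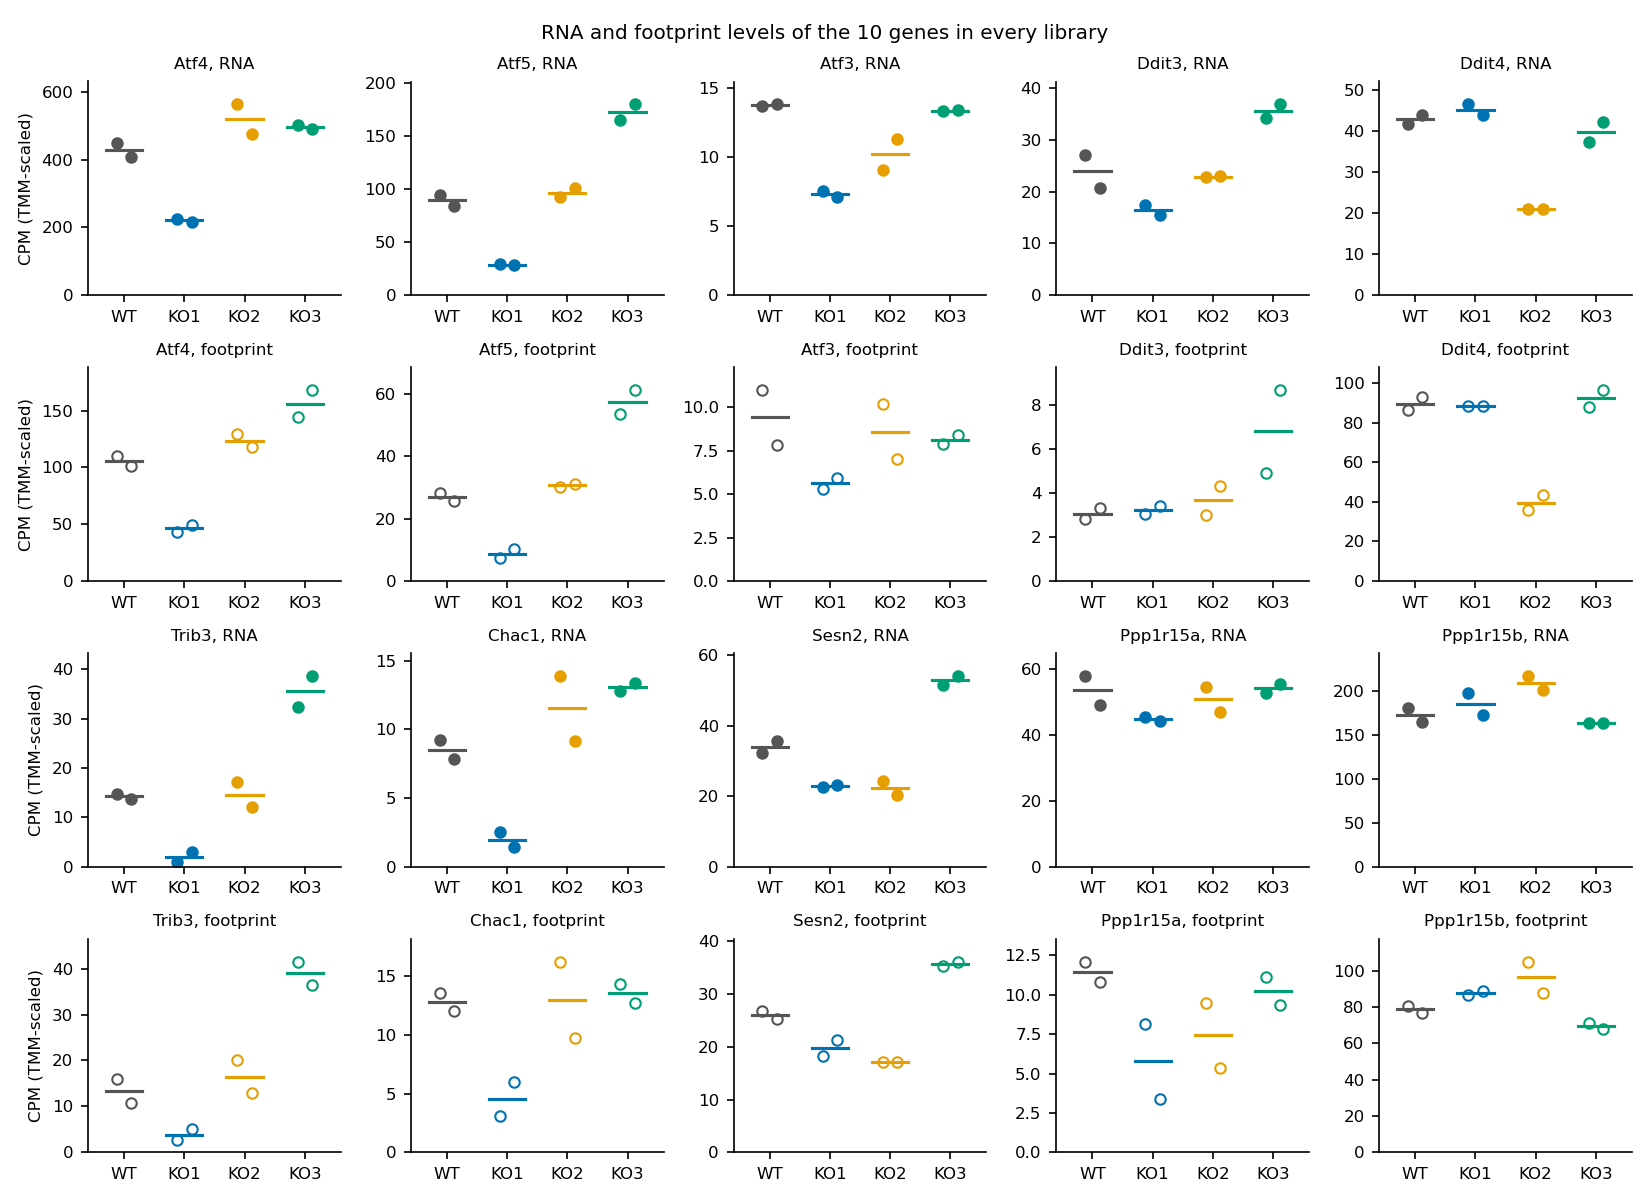
Levels of the 10 genes in all 16 libraries as TMM-scaled CPM (linear axes from 0), RNA as filled and footprints as open points, with the mean of the 2 replicates as a line. KO1 points lie below all others for Atf4, Atf5, Trib3 and Chac1 in both assays, and KO2 points lie lowest for Ddit4.

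Among the effectors, Trib3, a pseudokinase that dampens ATF4 and AKT signaling, moved most. It had 14.7 and 13.8 RNA CPM in WT cells, 1.04 and 3.02 in KO1, 17.1 and 12.1 in KO2, while KO3 had 32.4 and 38.7. KO1 kept 12 and 32 reads in the 2 libraries, against 161 and 162 in WT cells. Trib3 RNA fell 7.12-fold in KO1 (log2 change -2.83 ± 0.26, adjusted p = 1.17e-13) and rose 2.51-fold in KO3 (1.33 ± 0.13, adjusted p = 1.38e-15). The size in KO1 depended on the library: it was -2.24 without KO1 replicate 1 and -3.76 without KO1 replicate 2, called in both cases. In KO2 the change was 0.03 (adjusted p = 0.918).

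Chac1 had 9.21 and 7.84 RNA CPM in WT cells, 2.52 and 1.41 in KO1 and, in the other two clones, 13.9 and 9.18 (KO2) and 12.8 and 13.4 (KO3). KO1 lay below and KO3 above WT, while KO2 overlapped it. Chac1 RNA fell 4.28-fold in KO1 (log2 change -2.10 ± 0.28, adjusted p = 9.55e-09) and rose 1.54-fold in KO3 (adjusted p = 0.002), which was not called without WT replicate 2 (0.51, adjusted p = 0.0642). In KO2 the change of 0.44 did not pass (adjusted p = 0.134), but passed without KO2 replicate 2 (0.72, adjusted p = 0.00637).

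Sesn2, which senses leucine and restrains mTORC1, had 32.4 and 35.6 RNA CPM in WT cells, 22.6 and 23.3 in KO1, 24.4 and 20.5 in KO2, while KO3 had 51.6 and 54.2. Here KO1 and KO2 were both low and overlapped each other, and KO3 was high. Sesn2 RNA fell 1.48-fold in KO1 (adjusted p = 3.11e-05) and 1.51-fold in KO2 (adjusted p = 0.000821), and rose 1.57-fold in KO3 (adjusted p = 1.43e-08).

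Ddit4 had 41.8 and 44.0 RNA CPM in WT cells, 46.5 and 43.9 in KO1 and, in the other two clones, 21.0 and 20.9 (KO2) and 37.3 and 42.3 (KO3). KO2 alone stood apart from the other lines. Ddit4 RNA fell 2.04-fold in KO2 (log2 change -1.03 ± 0.11, adjusted p = 2.61e-07) and was not called in KO1 (0.08, adjusted p = 0.534) or KO3 (-0.10, adjusted p = 0.417). Sesn2 and Ddit4, the 2 genes that fell in KO2, are also known targets of p53.

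The phosphatase subunits moved least. Ppp1r15a, the inducible subunit, ranged from 44.1 to 57.8 RNA CPM over all 8 libraries and fell 1.20-fold in KO1 (adjusted p = 0.0172). That call was lost without WT replicate 1 (-0.14, adjusted p = 0.375) or KO1 replicate 2 (-0.24, adjusted p = 0.0693) and with DESeq2 (adjusted p = 0.121). Ppp1r15b ranged from 163 to 217 RNA CPM and rose 1.22-fold in KO2 (adjusted p = 0.00262), a call that was lost without WT replicate 2 (0.22, adjusted p = 0.0991).

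Footprints followed the RNA in direction at fewer genes, with fewer reads. At Atf4 and Atf5 most footprints lay on a first stretch of the coding sequence, described below, whose start an upstream frame overlaps. Their whole-gene footprints and TE, here and above, may therefore not follow the output of the protein. In KO1, footprints of 5 genes fell and none rose, beside 15.2% of 10335 genes tested that fell and 11.7% that rose. In KO3, 5 rose and none fell, beside 14.9% of 10398 genes that rose and 15.7% that fell. In KO2, 1 rose and 2 fell, beside 6.74% of 10370 genes that rose and 4.99% that fell.

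Atf4 had 110 and 101 footprint CPM in WT cells, 43.3 and 49.4 in KO1, 129 and 118 in KO2, while KO3 had 144 and 168. No replicates overlapped between any 2 lines. Atf4 footprints fell 2.38-fold in KO1 (log2 change -1.25 ± 0.12, adjusted p = 1.54e-12) and rose 1.46-fold in KO3 (0.55 ± 0.089, adjusted p = 3.63e-06). The change in KO2 was 0.24 (adjusted p = 0.0781).

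Trib3 had 16 and 10.8 footprint CPM in WT cells, 2.64 and 5.11 in KO1 and, in the other two clones, 20.0 and 13 (KO2) and 41.5 and 36.4 (KO3). Trib3 footprints fell 4.40-fold in KO1 (adjusted p = 2.19e-06) and rose 2.81-fold in KO3 (adjusted p = 2.86e-09), on 13 and 6 reads in KO1. Without KO1 replicate 1 the Trib3 change in KO1 was -1.43 on the log2 scale (adjusted p = 0.0492). Atf5 footprints fell 3.43-fold in KO1 (adjusted p = 1.94e-08) and rose 2.10-fold in KO3 (adjusted p = 2.86e-08). For both genes, KO1 lay below and KO3 above every WT and KO2 library.

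Chac1 had 13.5 and 12 footprint CPM in WT cells, 3.05 and 5.96 in KO1, 16.2 and 9.70 in KO2, while KO3 had 14.3 and 12.7. Unlike its RNA, its footprints did not pass the test in KO3 (0.08, adjusted p = 0.835). They fell 3.54-fold in KO1 (adjusted p = 2.08e-05), a call that rested on KO1 replicate 1, without which the change was -1.10 (adjusted p = 0.15). Atf3 footprints fell in KO1 by 0.84 on the log2 scale (adjusted p = 0.0443), but not without WT replicate 1 (-0.54, adjusted p = 0.522) or KO1 replicate 1 (-0.69, adjusted p = 0.48).

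Ddit4 had 86.5 and 92.7 footprint CPM in WT cells, 88.4 and 88.6 in KO1 and, in the other two clones, 35.7 and 43.5 (KO2) and 88.0 and 96.4 (KO3). KO2 alone lay apart, as in RNA, and Ddit4 footprints fell 2.26-fold there (log2 change -1.18 ± 0.12, adjusted p = 1.53e-08). Sesn2 footprints fell 1.51-fold in KO2 (adjusted p = 0.0263) and rose 1.36-fold in KO3 (adjusted p = 0.0189). Neither Sesn2 call held when any 1 of the 4 libraries was left out, with adjusted p from 0.0517 to 0.207 in KO2 and from 0.0533 to 0.0656 in KO3.

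Ddit3 had few footprints, from 4 to 28 reads a library. Its coding sequence had 2.81 and 3.31 footprint CPM in WT cells, 3.05 and 3.41 in KO1, 3.00 and 4.35 in KO2, while KO3 had 4.94 and 8.70. Both KO3 libraries lay above the others. Ddit3 footprints rose 2.18-fold in KO3 (adjusted p = 0.0274), which was lost without WT replicate 1 (0.99, adjusted p = 0.201), WT replicate 2 (1.23, adjusted p = 0.0596) or KO3 replicate 2 (0.69, adjusted p = 0.38). In KO1, where its RNA fell, the footprint change was 0.04 with a 95% interval from -0.89 to 0.97, so a change of the size seen in RNA was not detectable at this depth.

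Ppp1r15a footprints ranged from 3.41 CPM in KO1 replicate 2 (4 reads) to 12.1 CPM in WT replicate 1, and passed the test in no clone. In KO1 the change was -0.69 (adjusted p = 0.0707), and it was called without KO1 replicate 1 (-1.74, adjusted p = 0.0409) and in thinned counts (-1.27, adjusted p = 0.0431). In KO2, without KO2 replicate 1, it was also called (-1.09, adjusted p = 0.0493). Ppp1r15b footprints rose 1.24-fold in KO2 (adjusted p = 0.0465), but not without WT replicate 1 (0.34, adjusted p = 0.123), WT replicate 2 (0.28, adjusted p = 0.157) or KO2 replicate 1 (0.16, adjusted p = 0.51).

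**Figure D4:**
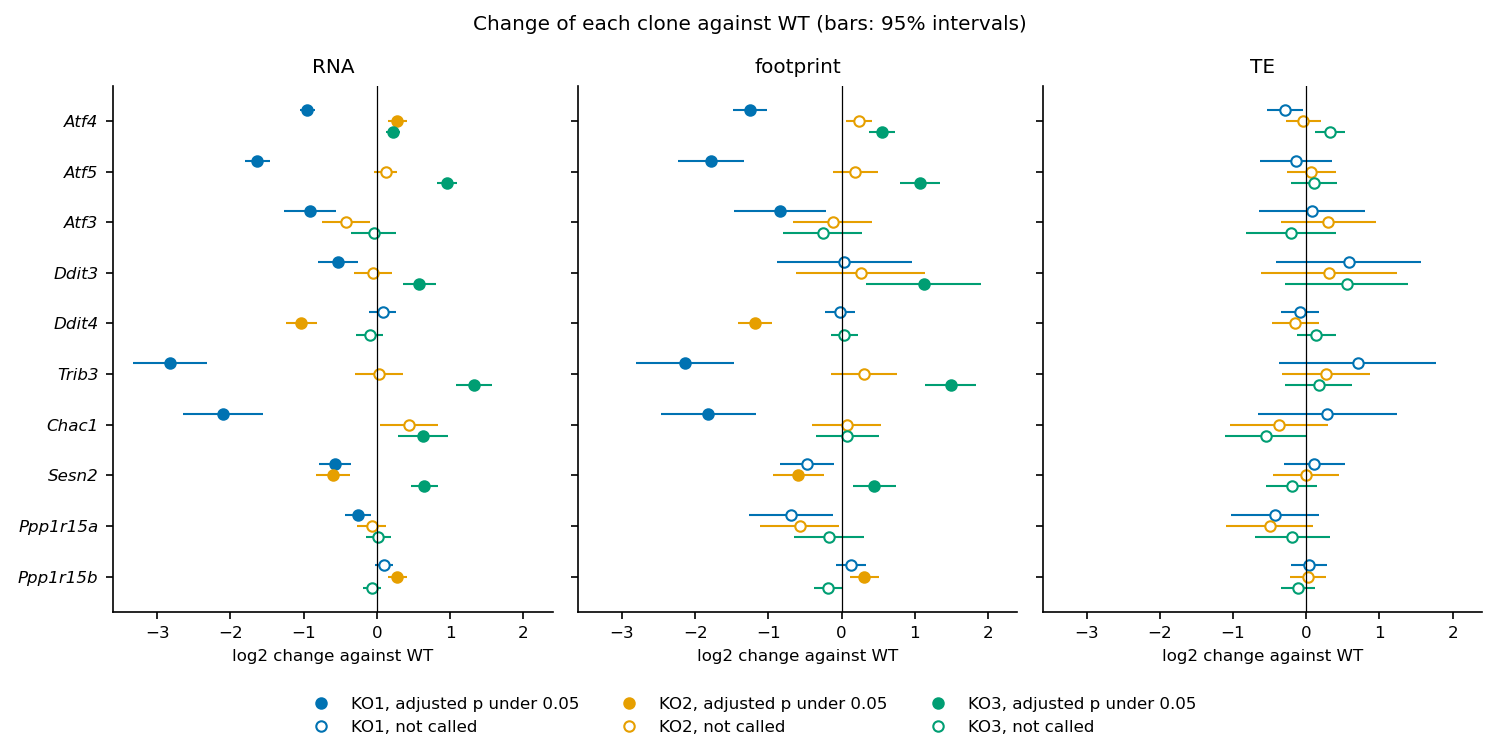
Log2 change of RNA, footprints and TE of the 10 genes in each clone against WT (points, filled where the adjusted p was under 0.05) with 95% intervals. KO1 points lie left and KO3 points right of 0 for Atf4, Atf5 and Trib3 in RNA and footprints, and no TE point is filled.

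TE itself, tested as the interaction of line and assay with edgeR's quasi-likelihood test, was called for none of the 10 genes in any clone. Beside that, the share of all genes called was 0.0942% of 11680 for KO1, 0.0173% of 11570 for KO2 and 0.104% of 11566 for KO3. At an unadjusted p under 0.05 the counts were 1, 0 and 1 of the 10 genes, and DESeq2 called none either. With the lysate as a block, 83 genes were called in KO1 in place of 11 and 4 in KO2 in place of 2, and still none of the 10. Ddit3 shows how wide the limits were: its TE change was 0.58 in KO1 with a 95% interval from -0.41 to 1.57.

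Atf4 came closest. Its TE was 0.193 and 0.227 in KO1 and, in the other two clones, 0.230 and 0.249 (KO2) and 0.287 and 0.343 (KO3), against 0.244 and 0.248 in WT cells. KO1 lay below and KO3 above the WT replicates, with log2 changes of -0.29 ± 0.13 (adjusted p = 0.651) in KO1 and 0.33 ± 0.11 (adjusted p = 0.376) in KO3. The test of a difference among the 3 clones called Atf4 TE (adjusted p = 0.0162), beside 1.03% of 11903 genes, and it called no other gene of the 10. The call was lost without KO1 replicate 1 (adjusted p = 0.263) or KO3 replicate 2 (adjusted p = 0.36) and in counts thinned to the smallest library (adjusted p = 0.297).

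The annotation divides the Atf4 coding sequence, and the counts along it were uneven. A short annotated transcript shares the start of the coding sequence, so its count gives the reads on codons 6 to 111 of the full-length protein, and the rest gives codons 112 to 345. This division, and those of Atf5 and Ddit3 that follow, were chosen after the counts had been seen. The first stretch holds 31.2% of the counted codons and held 32.4% to 33.8% of Atf4 RNA counts in WT cells. Of WT footprints, however, it held 56.4% and 61.9%, and this stretch begins with the codons that the upstream frame of 59 codons overlaps.

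In KO1 the imbalance was larger. The first stretch held 78.9% and 79.3% of Atf4 footprints in KO1, 58.3% and 67.5% in KO2, whereas KO3 had 58.8% and 54.9%. Its share of RNA counts stayed between 30.3% and 34.8% in all 8 libraries. Both KO1 libraries lay above the 6 others in footprints. On the later stretch, KO1 had 45 and 12 footprints (9.15 and 10.2 CPM), against 170 and 93 in WT cells (47.8 and 38.5 CPM), 216 and 115 in KO2 (54.0 and 38.5 CPM) and 240 and 244 in KO3 (59.3 and 75.8 CPM).

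Fitted as features of their own among all genes, the stretches gave different changes. Footprints on codons 112 to 345 fell 4.68-fold in KO1 (log2 change -2.23 ± 0.20, adjusted p = 9.38e-14), while those on codons 6 to 111 fell 1.77-fold (adjusted p = 1.87e-06) and RNA on them 1.98-fold and 1.87-fold. The TE of codons 112 to 345 fell 2.37-fold in KO1 (log2 change -1.25 ± 0.21, adjusted p = 0.0028), and that of codons 6 to 111 changed by 0.09 ± 0.15 (adjusted p = 0.956). The difference between the stretches was not tested.

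The TE of the later stretch was 0.161 and 0.140 in WT cells, 0.0615 and 0.0722 in KO1, 0.138 and 0.120 in KO2, while KO3 had 0.170 and 0.228. It was not called in KO2 (-0.21, adjusted p = 1.00) or KO3 (0.35, adjusted p = 0.687), and the clones differed (adjusted p = 6.82e-05). The KO1 value of -1.25 was called with DESeq2 (adjusted p = 9.29e-05) and with the lysate as a block (-1.26, adjusted p = 7.56e-06). It was not called without WT replicate 1 (-1.12, adjusted p = 0.0793), without KO1 replicate 1 (-1.08, adjusted p = 0.618) or in thinned counts (-1.25, adjusted p = 0.18). Without KO1 replicate 1 the difference among the clones had an adjusted p of 0.0515.

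Atf5 showed a steeper imbalance. A short annotated transcript shares the first 59 codons of Atf5 and a further short piece, and its 66 counted codons are 24.1% of the 274 of Atf5. It held 6.0% to 10.0% of Atf5 RNA counts but 77.2% to 88.9% of Atf5 footprints, with 81 of 100 and 51 of 62 footprints in WT cells. The KO1 footprint shares, 88.9% and 83.3%, lay above those of the 6 other libraries (77.2% to 82.4%), but on only 36 and 12 footprints. In KO1 replicate 2 the share was 10 of 12 footprints, so a single read could undo this order. The upstream frame of 58 codons lies mostly in the leader and overlaps only the first 56 bases of the coding sequence (19 codons touched), where this stretch begins. Outside it, Atf5 had 19 and 11 footprints in WT cells, 4 and 2 in KO1 and, in the other two clones, 23 and 21 (KO2) and 38 and 45 (KO3), so TE there was 0.0628 and 0.0582 in WT cells, at percentile 0.3 of all genes. On the shared stretch TE was 2.42 and 3.39, over 103 and 73 RNA counts in WT cells. These RNA counts were fewer than the share of codons would give, for a reason that was not tested. The TE of this stretch is therefore not comparable with that of whole genes or of the remainder.

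Footprints on the remainder of Atf5 fell in KO1 (log2 change -2.30 ± 0.55, adjusted p = 0.000927) and rose in KO3 (1.18 ± 0.30, adjusted p = 0.00238), as did its RNA. Their TE changed by -0.73 ± 0.56 in KO1 and was not called (adjusted p = 0.843). The footprint call in KO1 was lost without WT replicate 1 (-2.16, adjusted p = 0.0841) or KO1 replicate 1 (-1.53, adjusted p = 0.347), and that in KO3 without KO3 replicate 2 (0.89, adjusted p = 0.0714).

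**Figure D5:**
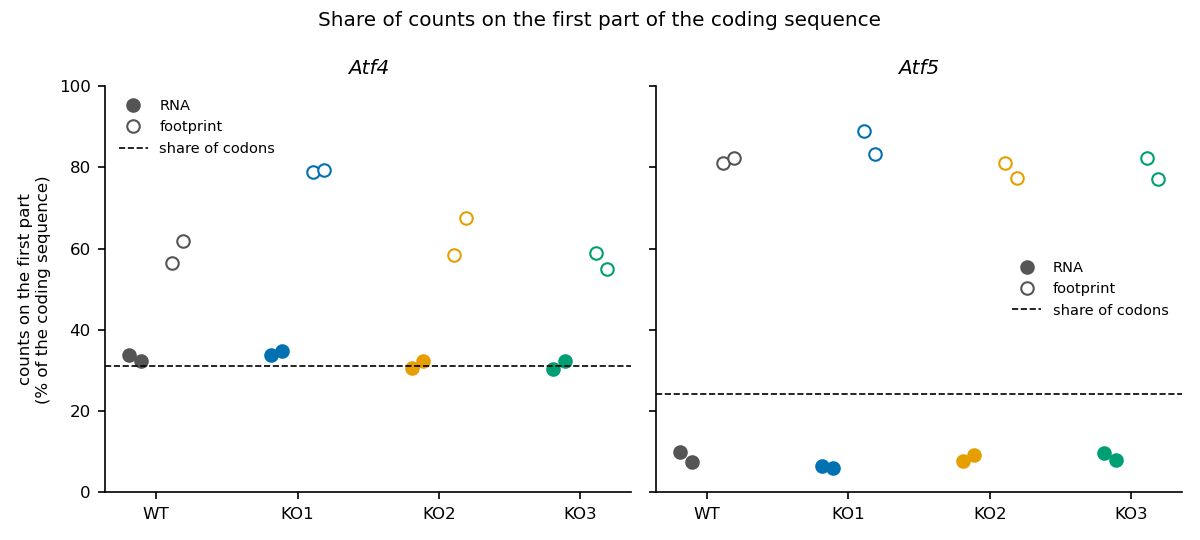
Share of the counts of Atf4 (left) and Atf5 (right) that fell on the stretch shared with a short annotated transcript, in percent, for RNA (filled) and footprints (open) in all 16 libraries, with the share of codons as a dashed line. Footprints lie above the line and RNA near or below it, and for Atf4 the KO1 footprints are highest, at 78.9% and 79.3%.

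For Ddit3 the annotation lists the upstream frame itself as a coding transcript, with 35 codons including the stop and 25 of them counted. It had 12 and 9 footprints in WT cells, 6 and 1 in KO1, 18 and 2 in KO2, while KO3 had 23 and 18, against 10 and 8, 15 and 4, 12 and 13, and 20 and 28 on the 159 counted codons of the Ddit3 coding sequence. Summed over the 8 libraries, 89 footprints fell on the upstream frame and 110 on the coding sequence, whereas RNA counts were 33 and 2324. Per counted codon the upstream frame held 0.978 to 9.54 times the footprints of the coding sequence, and 0.0223 to 0.191 times the RNA counts. Footprints on the upstream frame differed among the clones (adjusted p = 0.00214), which DESeq2 did not call (adjusted p = 0.0667). Their TE was called in no clone (adjusted p from 0.884 to 1.00). RNA counts on this frame were 1 to 13 a library, although all its 105 bases lie in the Ddit3 leader. The reason was not tested, and a TE test on so few RNA counts cannot decide whether TE changed.

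Over the 3 clones together, the mean change in RNA was called for 5 of the 10 genes, all lower, beside 18.9% of 11755 genes. These were Trib3 (-0.49), Atf3 (-0.46), Ddit4 (-0.35), Atf5 (-0.18) and Atf4 (-0.15). Each of them lost the call without at least 1 WT library, with adjusted p up to 0.522 for Atf4, 0.517 for Atf5, 0.161 for Trib3 and 0.123 for Atf3 and of 0.0685 for Ddit4, and DESeq2 called only 1. For Trib3, Atf5 and Atf4 the clones went opposite ways, so the mean describes no single clone. Mean footprints were called for Ddit4 only (-0.38, adjusted p = 0.00226), beside 9.25% of 10763 genes, and not without WT replicate 2 (-0.33, adjusted p = 0.0744). Mean TE was called for none, beside 0.00% of 11903 genes, with 0 of the 10 at an unadjusted p under 0.05 and 0 with DESeq2.

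The clones differed from one another at the RNA of all 10 genes, but so did 74.0% of 11755 genes, and at the footprints of 8, beside 59.5% of 10763 genes. The exceptions in footprints were Atf3 (adjusted p = 0.108) and Ppp1r15a (adjusted p = 0.21). KO1 and KO2, made with the same guides, lay apart at Atf4, Atf5, Atf3, Trib3, Chac1 and Ddit4 in both assays with no overlap of replicates. The share of all genes that lay apart in this way was not counted.

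Genes known as targets of ATF4 other than these 10 were counted from a list of 41, of which 39 were tested for RNA. This list too was chosen with earlier results of these data known. In KO1, 33 fell and 1 rose, with a median log2 change of -0.42. In KO2, 14 rose and 2 fell (median 0.09), and in KO3 19 rose and 5 fell (median 0.17). Of all genes tested, 24.6% fell and 22.1% rose in KO1, 8.86% fell and 11.6% rose in KO2, and 22.3% fell and 23.1% rose in KO3. Footprints fell at 26 and rose at 1 of 38 in KO1, rose at 12 and fell at 2 of 38 in KO2, and rose at 11 and fell at 5 of 39 in KO3. Over all genes, footprints fell at 15.2% and rose at 11.7% in KO1, fell at 4.99% and rose at 6.74% in KO2, and fell at 15.7% and rose at 14.9% in KO3.

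Among them, Slc6a9, a glycine transporter, changed by -2.62 ± 0.32 (log2, SE) in KO1 (adjusted p = 9.17e-10), and was not called in KO2 (-0.17) or KO3 (0.22). Cth, which makes cysteine from cystathionine, changed by -2.32 ± 0.24 in KO1 (adjusted p = 3.64e-12), with -0.21 in KO2 and 0.29 in KO3, not called. Cars, the cysteinyl-tRNA synthetase, changed by -1.84 ± 0.062 in KO1 (adjusted p = 3.2e-31). Gdf15, a secreted stress factor, did not follow Atf4: it fell in KO1 (-0.37, adjusted p = 0.00141) and also in KO3 (-0.70, adjusted p = 1.54e-08).

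Upstream of ATF4, the 4 eIF2 kinases gave 2 higher in KO1, 1 higher in KO2 and 2 lower in KO3 in RNA. Eif2ak1, the heme-regulated kinase, rose in KO1 (0.77 ± 0.075, adjusted p = 1.24e-12) and was not called in KO2 (-0.18) or KO3 (-0.01). Of 10 subunits of eIF2 and its exchange factor eIF2B, 4 rose and 3 fell in KO1, 4 fell in KO2, and 1 rose and 3 fell in KO3. Over all genes the share that fell was 24.6%, 8.86% and 22.3% in the same order of clones, and the share that rose 22.1%, 11.6% and 23.1%, so counts out of 10 said little about these subunits. Eif2b2 fell in KO1 (-0.39, adjusted p = 0.000668) and KO2 (-0.40, adjusted p = 0.00552). The activity of the kinases and the phosphorylation of eIF2 were not measured here.

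The partners with which ATF4 and CHOP form dimers gave 9 lower and 1 higher of 15 tested in KO1, 4 higher and 3 lower in KO2, and 7 higher and 2 lower in KO3. Over all genes the share that fell was 24.6%, 8.86% and 22.3% in the same order of clones, and the share that rose 22.1%, 11.6% and 23.1%. Maf rose in KO2 (0.90) and KO3 (1.52, adjusted p = 5.88e-27), Cebpd fell in KO1 (-0.64) and KO2 (-1.34, adjusted p = 0.000147), Fosl2 fell in all 3 clones (-0.36, -0.47 and -0.85), and Fosl1 fell in KO1 (-0.29) and KO3 (-1.03, adjusted p = 1.93e-20). Cebpb, Cebpg and Jdp2 stand in both this list and that of ATF4 targets.

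The other branches of the unfolded protein response, run by IRE1 and ATF6, gave 11 lower and 3 higher of 19 genes in KO1, 3 higher and 2 lower in KO2, and 7 higher and 4 lower in KO3. The counts for KO2 and the falls in KO3 were close to the shares over all genes (8.86% lower and 11.6% higher in KO2, 22.3% lower in KO3), against 24.6% lower and 22.1% higher in KO1 and 23.1% higher in KO3. Sdf2l1, an ER cochaperone, fell in KO1 (-0.77, adjusted p = 0.000405) and KO3 (-0.90, adjusted p = 3.11e-05). Pdia4 fell in the same clones (-0.25 and -0.34), and Calr rose in KO1 (0.31) and KO2 (0.15, adjusted p = 0.0431).

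Known p53 targets outside the 10 genes were set beside Sesn2 and Ddit4. Of 15 tested, 11 fell and none rose in KO2, with a median log2 change of -0.55, while 6 rose and 4 fell in KO1 and 2 rose and 6 fell in KO3. Of all genes, 8.86% fell and 11.6% rose in KO2, while 24.6% fell and 22.1% rose in KO1 and 22.3% and 23.1% in KO3. Mdm2, the ligase that holds p53 down, fell by 0.75 on the log2 scale in KO2 (adjusted p = 1.89e-09), Cdkn1a by 0.77 (adjusted p = 7.35e-07), Btg2 by 0.78 (adjusted p = 0.000203) and Trp53inp1 by 0.64 (adjusted p = 0.00105). Falls of these genes were not confined to KO2. Mdm2 and Trp53inp1 also fell in KO1 (-0.17 and -0.46) and KO3 (-0.33 and -0.88), and Cdkn1a fell in KO1 (-0.35). Cdkn1a was not called in KO3 (0.17), nor Btg2 in KO1 (-0.16) or KO3 (-0.04). The part of p53 in the Sesn2 and Ddit4 values was not tested.

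Hepatocyte markers also changed. Of 8 tested, 7 fell and none rose in KO1 RNA (median -1.22), 4 fell and 1 rose in KO2, and 4 fell and 3 rose in KO3, beside 24.6%, 8.86% and 22.3% of all genes that fell and 22.1%, 11.6% and 23.1% that rose. Their summed level was 2430 to 2610 CPM in WT cells and 983 CPM in both KO1 libraries. It was 1910 to 2030 CPM in KO2 and 3540 to 3710 CPM in KO3, which is the order KO1, KO2, WT, KO3. Alb (263 to 1870 CPM over the RNA-seq libraries), Afp (350 to 1150) and Trf (213 to 756) weigh most in this sum. The median log2 change of the markers tested was -0.22 in KO2 and -0.18 in KO3. Hnf4a, a liver transcription factor, fell in KO1 (-1.97, adjusted p = 2.98e-25) and KO3 (-0.36, adjusted p = 2.45e-05) and was not called in KO2 (-0.16). Trf, which encodes transferrin, fell in all 3 clones (-1.75, -0.28 and -0.62), as did Fgb (-1.40, -2.43 and -0.72). The summed level of markers of other cell types was 907 to 962 CPM in WT cells, 820 to 882 in KO1, 717 to 841 in KO2 and 1080 to 1110 in KO3, with Dcn making up most of it. The part of either in the stress response values was not tested.

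The pattern of Atf4 RNA over the 8 RNA-seq libraries was most like that of Atp2c1 (Pearson's r of log2 CPM 0.995), Txn2 (0.994) and Nsmce1 (0.993) among 11754 other genes. For Ddit3 these were Mrps30 (0.996), Prkar2a (0.991) and Gpc3 (0.989), and for Trib3 Gas2 (0.991) and Atg4d (0.989). Within the 10 genes, r with Atf4 was 0.983 for Chac1, 0.918 for Atf5 and 0.908 for Trib3, and -0.564 for Ddit4. These values describe 4 lines with 2 libraries each that share their depth and scaling.

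Promoters of the genes were read from RefSeq (GRCm38.p6, 250 bases before to 50 after the start), which held 9 of the 10, all but Ppp1r15b. The motif TGATGNAA, the core of the composite site of ATF4 with C/EBP proteins, was searched on both strands. It was found in 3 of the 9 genes, Atf3, Chac1 and Trib3, and in 3.97% of 32851 promoters. The palindrome TGACGTCA, the full CRE, was found in Ppp1r15a and in 1.79% of promoters. Chac1 and Trib3 are printed with the motif in capitals because they had the largest falls in KO1 of the 10 genes.
Chac1 (chr2:119350992-119351291, plus strand): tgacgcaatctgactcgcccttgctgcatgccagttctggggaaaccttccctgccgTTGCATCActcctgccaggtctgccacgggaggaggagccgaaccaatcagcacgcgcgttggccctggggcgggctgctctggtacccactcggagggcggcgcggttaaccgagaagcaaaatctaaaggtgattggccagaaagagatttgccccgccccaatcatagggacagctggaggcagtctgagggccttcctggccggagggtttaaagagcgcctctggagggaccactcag
Trib3 (chr2:152344011-152344310, minus strand): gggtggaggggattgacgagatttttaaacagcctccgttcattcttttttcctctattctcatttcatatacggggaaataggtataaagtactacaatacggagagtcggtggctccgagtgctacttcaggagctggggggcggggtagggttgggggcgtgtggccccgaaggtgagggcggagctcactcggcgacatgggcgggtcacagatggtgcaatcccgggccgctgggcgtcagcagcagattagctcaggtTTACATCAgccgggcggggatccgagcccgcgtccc
In both promoters the motif reads on the strand opposite to the gene. It lies from -193 to -186 in Chac1 and from 14 to 21 in Trib3, counted from the annotated start as 0. Atf3 holds the same letters as Chac1 from -110 to -103. A match of letters does not show binding, which was not measured here.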

How the data were processed

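RNA-seq and Ribo-seq were made from the same lysates of Hepa1-6 WT cells and 3 exon 5 KO clones, 2 replicates each. Per the study's methods and the submitters' processing notes, reads were trimmed with fastp 0.21.0, cleared of noncoding RNA and aligned to the mouse genome with STAR 2.7.0a, and reads were assigned to codons by A-site offsets, leaving out the first and last 5 codons; whether reads were filtered by frame is not given in the sources used here. The labels describe polyA RNA and the methods rRNA depletion. The authors deposited raw counts for 67139 transcripts of 22392 gene symbols, in which a read is counted on every transcript that it matches, so transcripts of a gene share reads.

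For this report each gene kept the transcript with the largest total count (ties went to the lowest identifier). Counts were tested with edgeR 4.0.16 (quasi-likelihood test, TMM scaling within assay, filterByExpr) in R 4.3.3, each clone against WT, with Benjamini-Hochberg adjustment over all genes tested and a threshold of 0.05. TE was the interaction of line and assay. The mean of the clones and the difference among them came from fits of all 4 lines. SE was the log2 change divided by the square root of F, and 95% intervals used the normal quantile. DESeq2 1.42.0, other filters, scalings, transcripts, thinned counts and left-out replicates were alternatives. The scripts were tested on simulated data. RNA and footprints of a lysate deviated together (r of replicate differences from 0.112 to 0.284 in the 4 lines, over 4014 genes), and the lysate block changed the call of none of the 10 genes. CPM and intervals cover counting and replicate spread only as far as 2 replicates show it.

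The 10 genes and all lists were chosen with earlier results of these data known. Beyond the 10 genes, each list was represented by up to 4 genes called in the mean of the clones with the largest mean change in RNA. For Atf4, Ddit3 and Trib3, the 3 genes with the highest r of log2 CPM over the RNA-seq libraries were named, of which 1 is not reported here.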

Additional observations from a re-analysis of the deposited data

Results flagged for a closer look

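The changes of the 10 genes differed among the 3 clones by edgeR's quasi-likelihood test of that difference in the fit of all lines, each clone with 2 replicates per assay. In RNA the adjusted p was 3.77e-19 for Atf4, 3.86e-24 for Atf5, 0.000168 for Atf3, 5.29e-09 for Ddit3, 4.17e-11 for Ddit4, 1.86e-17 for Trib3, 1.78e-11 for Chac1, 6.14e-14 for Sesn2, 0.0263 for Ppp1r15a and 9.15e-05 for Ppp1r15b. In footprints it was 2.42e-17 for Atf4, 3.75e-16 for Atf5, 0.0282 for Ddit3, 1.11e-12 for Ddit4, 1.44e-14 for Trib3, 3.04e-06 for Chac1, 2.69e-07 for Sesn2 and 0.000273 for Ppp1r15b. In TE it was 0.0162 for Atf4 and 6.82e-05 for its codons 112 to 345. Such differences were common among all genes in RNA (74.0%) and footprints (59.5%) and rare in TE (1.03%).

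The difference was not called for Ppp1r15a RNA without KO1 replicate 1 (adjusted p = 0.0748), KO1 replicate 2 (adjusted p = 0.125) or KO3 replicate 2 (adjusted p = 0.104), nor for Ddit3 footprints without KO1 replicate 1 (adjusted p = 0.104), KO2 replicate 1 (adjusted p = 0.0609) or KO3 replicate 2 (adjusted p = 0.494), nor for Chac1 footprints without KO1 replicate 1 (adjusted p = 0.129).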

How the results depend on the processing

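Of 56 called results of the 10 genes, 32 kept their call under every planned setting, no called value changed sign, and 79 of 1350 values without a call changed sign and stayed without one. With 2 replicates per line, leaving out 1 library leaves a lone sample that is assumed to vary like the others, and footprint depth limits Ddit3, Trib3 and Chac1 in KO1. The cause of the changes below was not tested.

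DESeq2 called 1404 genes in KO2 RNA in place of 2348, 859 in KO1 footprints in place of 2777, 324 in KO2 in place of 1216, 1232 in KO3 in place of 3182, 342 for the mean in place of 996 and 3831 for the difference in place of 6404. In counts thinned to the smallest library, the footprint counts were 1377, 507, 1380, 427 and 3940. Of the 10 genes, DESeq2 called 1 in mean RNA in place of 5, and in footprints 3 in KO1, 1 in KO2, 3 in KO3 and 0 for the mean in place of 5, 3, 5 and 1. Thinned footprints gave 1 in KO2, 3 in KO3, 0 for the mean and 5 for the difference in place of 8. At least 10 counts in every library gave 3 in KO1 footprints and 5 for the difference.

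For TE over all genes, KO1 had 11 calls, but 21 without a filter, 17 with all transcripts and 19 with DESeq2. KO2 had 2, but 1 with at least 10 counts. KO3 had 12, but 19 without a filter, 7 with DESeq2, 4 thinned and 7 with all lines in 1 fit. The difference had 123, but 63 thinned, with 0 of the 10 genes in place of 1. With the lysate as a block, the counts were 83 in KO1, 4 in KO2, 1 for the mean and 407 for the difference. TE of Atf4 codons 112 to 345 in KO1 was -1.25 in thinned counts, without a call.

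Same-numbered replicates of different lines did not all deviate together (r from -0.003 to 0.373 in RNA and from 0.097 to 0.201 in footprints), so the numbers were not taken as pairs. A replicate block gave 56 TE calls in KO1 in place of 11 and 232 for the difference in place of 123. With it, Atf3 RNA in KO2 (adjusted p = 0.0494), Atf4 footprints in KO2 (adjusted p = 0.0276) and Ppp1r15a footprints in KO1 (adjusted p = 0.0318) were called.

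With 1 replicate left out, RNA calls over all genes ranged from 4054 to 4720 in KO1, 1390 to 2521 in KO2, 3766 to 4651 in KO3, 1153 to 2495 for the mean and 8128 to 8696 for the difference. Footprint calls ranged from 1381 to 2806, 710 to 1060, 2286 to 2601, 384 to 1013 and 5084 to 6472, and TE calls from 4 to 11, 1 to 2, 2 to 6, 0 to 0 and 60 to 128. Of the 10 genes, RNA calls ranged from 6 to 8, 2 to 6, 4 to 6, 1 to 4 and 9 to 10, footprint calls from 4 to 6, 1 to 2, 3 to 4, 0 to 2 and 6 to 8, and TE calls from 0 to 1 for the difference and were 0 elsewhere. TE of Atf4 codons 112 to 345 in KO1 ranged from -1.33 to -1.08, and the adjusted p of its difference from 4.02e-07 to 0.0515.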
